A study of Mus musculus with 40 samples.

Results

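Interferon-stimulated genes are the genes that cells switch on when type I or type II interferon binds its receptor, and 44 of them were followed here in mouse bone marrow stem cells and lymphoid progenitors that lacked or kept Mbd3. The 44 symbols were listed by name, and all 44 matched a gene among the 49585 gene features counted. Mbd3 is a subunit of the NuRD complex, which remodels nucleosomes and removes acetyl groups from histones. The RNA of sorted cell pools was sequenced by Smart-seq2, which amplifies full-length cDNA and carries neither strand information nor molecular identifiers. Both groups were C57BL6/129Ola mice aged 46 to 51 days, of either sex. The 5 control mice (mouse10357, mouse10358, mouse10372, mouse10380 and mouse10381) carried Mbd3_Flox/Flox, floxed alleles with the gene intact, and the 5 Mbd3del mice (mouse10360, mouse10361, mouse10365, mouse10376 and mouse10384) carried Mbd3_Del/Del. The sources used here do not give the promoter or cell type that drove the deletion. From each of the 10 mice 4 populations were sorted, which gave 40 libraries and 5 per group: haematopoietic stem cells (HSCs, CD45+ CD150+ CD48- EPCR+), lymphoid-primed multipotent progenitors (LMPPs, Flt3hi and IL-7Ra-), all-lymphoid progenitors (ALPs, IL-7Ra+ Ly6D-) and lymphoid progenitors biased to B cells (BLPs, IL-7Ra+ Ly6D+). The last 3 were gated as Lin- cells with Sca-1 and c-Kit on their surface and without B220. Replicates were different mice, and the 4 populations of a mouse share that mouse.

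As background, interferon alpha and beta bind the receptor chains IFNAR1 and IFNAR2. The kinases JAK1 and TYK2 then phosphorylate STAT2, which joins IRF9 in a complex that binds interferon-stimulated response elements (ISREs) in promoters. Interferon gamma acts through GAS elements. Haematopoietic stem cells are known to keep some interferon-stimulated genes on without infection, the IFITM family among them. In the list, Stat2, Irf1, Irf7 and Irf9 carry or amplify the signal. Isg15, Usp18, Herc6 and Trim25 belong to the ISG15 modifier system. The IFIT, OAS, Mx, GBP and IFITM families, with Ifih1, Eif2ak2, Zbp1, Rsad2, Cmpk2 and Isg20, recognise or restrict viral RNA, membranes or nucleotides. Psmb8, Psmb9 and Tap1 cut and transport peptides for MHC class I.

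Library depth was 2974305 to 9082610 counts in genes, and 14234 to 63933 of these fell on the 44 members. Mitochondrial genes took 2.35 to 7.75% of the counts. The deleted gene separated the groups as labelled: the highest Mbd3del library had 3.24 CPM (counts scaled to a common library total) of Mbd3 and the lowest control library 8.18. Sort markers followed the gates. Il7r, which encodes IL-7Ra, had at most 6.84 CPM in any HSC or LMPP library and at least 245 in any ALP or BLP library, and Ly6d was at 3823 CPM or more in every BLP library and at 511 or less elsewhere. In control mouse10372 and mouse10381, transcripts of the sex chromosomes went against the labelled sex. The signs and medians of the members between genotypes are therefore given with and without both mice. Steps between populations, correlations and single members other than Oas2 in ALPs are not given without both. Mbd3del LMPP libraries are floxed by their titles, whereas their genotype field and Mbd3 levels go with deletion. Levels below are CPM on TMM-scaled library sizes. A difference is a log2 fold change with its standard error. A call is an adjusted p under 0.05 in edgeR's quasi-likelihood test with Benjamini-Hochberg adjustment over all genes tested. Because each library is RNA of about 100 or 150 pooled cells, fewer cells of a type and less RNA per cell cannot be told apart.

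The binding motif of the interferon-activated complex was looked for in RefSeq promoter sequences of GRCm38.p6, from 250 bases before to 50 after each start, which were given for 35 of the 44 members. An ISRE-like match was defined as GAAANNGAAA, or its reverse complement TTTCNNTTTC, and occurred in 16 of the 35 (45.7%), against 3.99% of the 27025 genes in the same table and 3.44% of all 32851 promoters of that length. A GAS-like match, TTCNNNGAA, which reads the same on both strands, occurred in 9 (25.7%), against 9.55% of genes. Matches of one motif may overlap each other, as in Oas1a. The 5 members shown are those with a match that tracked the mean of the other members most closely between libraries of one group (r of 0.39 to 0.47, described further on). Each sequence runs 5′ to 3′ on the strand of its gene from 200 bases before the start to 30 bases after it, and capitals mark the ISRE-like matches.
Eif2ak2 (chr17:78882543-78882772, minus strand): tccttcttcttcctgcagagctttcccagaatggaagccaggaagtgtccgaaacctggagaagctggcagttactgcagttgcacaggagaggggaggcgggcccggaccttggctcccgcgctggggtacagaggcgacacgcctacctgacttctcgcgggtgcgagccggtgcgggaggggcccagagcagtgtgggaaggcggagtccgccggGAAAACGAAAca
Ifit1 (chr19:34640689-34640918, plus strand): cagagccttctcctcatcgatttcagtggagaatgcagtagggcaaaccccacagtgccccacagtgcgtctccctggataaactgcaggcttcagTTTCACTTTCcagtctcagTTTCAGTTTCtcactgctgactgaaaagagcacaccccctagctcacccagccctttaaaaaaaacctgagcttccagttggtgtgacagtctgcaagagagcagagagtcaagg
Ifit3 (chr19:34583329-34583558, plus strand): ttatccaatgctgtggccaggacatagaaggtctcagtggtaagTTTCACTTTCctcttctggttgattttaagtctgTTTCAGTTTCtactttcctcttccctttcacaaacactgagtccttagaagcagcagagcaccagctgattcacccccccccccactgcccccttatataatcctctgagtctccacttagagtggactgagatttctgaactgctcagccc
Rsad2 (chr12:26456423-26456652, minus strand): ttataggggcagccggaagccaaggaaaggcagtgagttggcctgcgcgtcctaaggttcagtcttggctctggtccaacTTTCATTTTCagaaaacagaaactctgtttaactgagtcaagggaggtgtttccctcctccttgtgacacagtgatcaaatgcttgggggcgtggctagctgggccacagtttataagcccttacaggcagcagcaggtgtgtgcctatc
Oas1a (chr5:120907496-120907725, minus strand): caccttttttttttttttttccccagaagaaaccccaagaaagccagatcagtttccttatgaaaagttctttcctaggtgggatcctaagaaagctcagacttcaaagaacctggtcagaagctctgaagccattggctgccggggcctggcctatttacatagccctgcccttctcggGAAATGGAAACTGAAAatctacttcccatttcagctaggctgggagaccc

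Eif2ak2 encodes PKR, a kinase that stops translation on double-stranded RNA, and its match begins at position 19 after the start. Ifit1 and Ifit3 encode proteins that bind foreign RNA ends. Their matches begin at positions -104 and -85 in Ifit1 and -156 and -122 in Ifit3. The match of Rsad2, which encodes viperin, begins at position -120. Those of Oas1a, an oligoadenylate synthetase whose product activates RNase L, begin at positions -20 and -14 and overlap. A match is a run of letters and not a measured binding site.

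Compared per kilobase of exon and over all 40 libraries, the 3 IFITM genes stood first among the members: Ifitm3 at 924.5 CPM per kb, Ifitm1 at 885 and Ifitm2 at 470.5. They encode small membrane proteins that block the entry of viruses into cells and lie as neighbours on chromosome 7 (GRCm38; Ifitm1 at chr7:140967221-140969825, Ifitm3 at chr7:141009586-141010770). Psmb8, the immunoproteasome subunit LMP7, followed at 309.7 CPM per kb, Ifi27l2a at 134 and Rtp4 at 123. Isg15 itself, the ubiquitin-like modifier that names the group, ranked 35 of 44 at 4.28 CPM per kb, and Dtx3l ranked last at 0.789.

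The summed level of the 44 members was highest in HSCs in both genotypes. It was 9285 ± 1625 CPM (SD, n = 5) in control HSCs, 6365 ± 1793 in LMPPs, with 4231 ± 434 in ALPs and 4844 ± 720.5 in BLPs. In Mbd3del mice it was 7822 ± 1097, 4955 ± 610.2, 3770.2 ± 528 and 4186 ± 261. Most of the HSC total came from IFITM genes: their median share of it was 54.8% in control HSCs, 33.7% in LMPPs, with 9.64% in ALPs and 7.05% in BLPs, and 58.5, 30.8, 14.5 and 8.85% in Mbd3del mice.

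**Figure D1:**
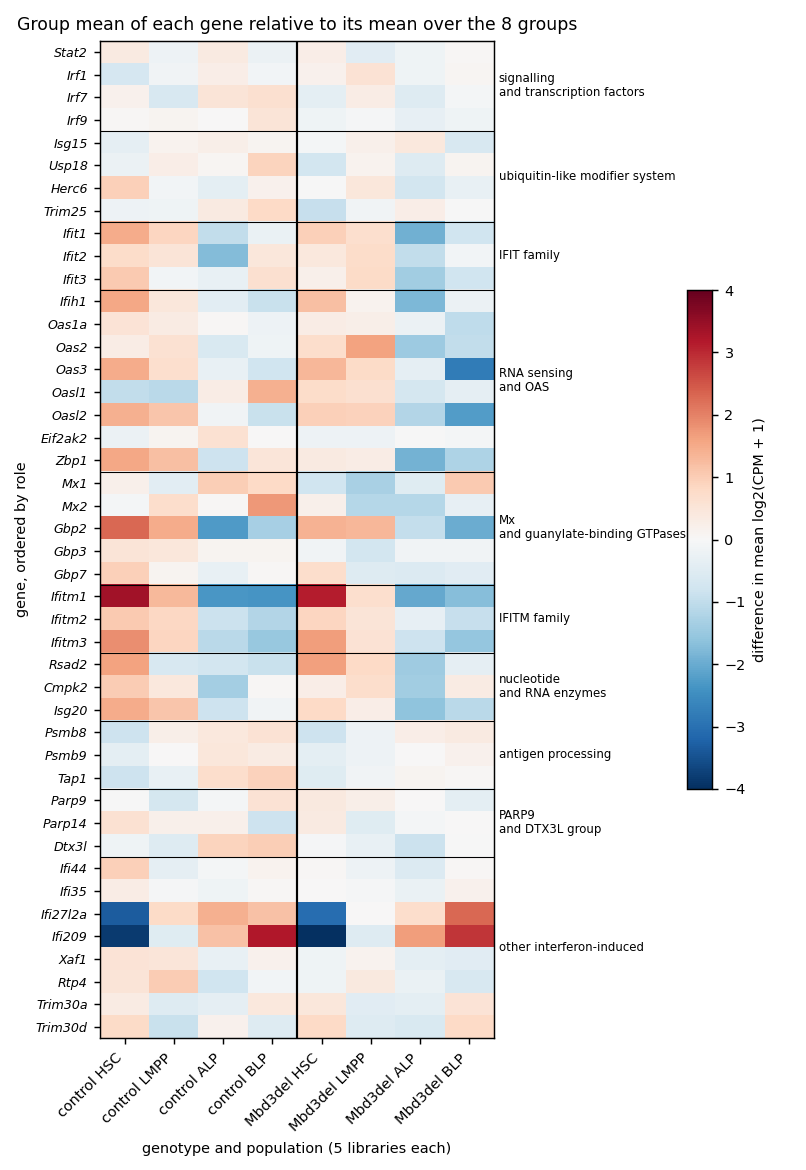
Mean level of each of the 44 members in each population and genotype relative to its mean over the 8 groups (colour: difference in mean log2(CPM + 1), 5 libraries per group; members ordered by role). Ifitm1 and Ifitm3 are far above their own mean in HSCs and below it in ALPs and BLPs, and Ifi27l2a and Ifi209 run the other way.

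By group mean, 22 members were highest in HSCs, 5 in LMPPs, with 8 in ALPs and 9 in BLPs in control mice. In Mbd3del mice these numbers were 18, 13, 2 and 11, and 24 of the 44 had the same highest population in both genotypes. ALPs were the lowest population for 15 members in control and 21 in Mbd3del mice. These orders come from means, and neighbouring populations often overlapped library by library, so the steps from one population to the next were tested. Between steps, 14 members were called at least once, with 25 calls in all, and 30 were called in none.

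Ifitm1 and Ifitm3 fell at both early steps in both genotypes, and Ifitm2 at the second in control mice. Ifitm1 stood at 2465, 2499, 2606, 3809 and 4642 CPM in the 5 control HSC libraries, at 277, 492, 711, 1134 and 2039.7 in LMPPs, at 23.1, 31.8, 72.6, 88.4 and 150.1 in ALPs and at 40.1, 49.8, 51.3, 73.4 and 88.5 in BLPs. In Mbd3del mice it stood at 1977, 2172, 3105, 3225 and 3237 in HSCs, 222, 324, 605, 687 and 852 in LMPPs, 35.7, 54.0, 76.3, 80.9 and 176 in ALPs and 50.2, 55.4, 80.1, 136 and 217 in BLPs. Every HSC library was above every LMPP library, and every LMPP library above every ALP library, in both genotypes, whereas ALPs and BLPs overlapped. From HSCs to LMPPs the log2 difference of Ifitm1 was -1.79 ± 0.44 in control (edgeR's quasi-likelihood test, adjusted p = 0.0283) and -2.35 ± 0.33 in Mbd3del mice (adjusted p = 0.000427). From LMPPs to ALPs it was -3.66 ± 0.60 (edgeR adjusted p = 0.00638) and -2.68 ± 0.44 (adjusted p = 0.00438).

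Ifitm3 followed the same order at a smaller range. Control HSC libraries held 1157, 1359, 1454, 1739.7 and 2009.8 CPM, LMPPs 523, 525, 677, 1028 and 1181, ALPs 164, 177, 181, 226 and 242, and BLPs 121, 139, 141, 152 and 162. Mbd3del libraries held 1192, 1259, 1267, 1304 and 1578 in HSCs, 450.2, 553, 630.0, 764 and 766 in LMPPs, 131, 205, 269, 295 and 332 in ALPs and 110.4, 113, 126, 176 and 193 in BLPs. Only the highest control LMPP library reached into the control HSC range, and LMPPs and ALPs did not overlap in either genotype. The log2 differences were -0.97 ± 0.26 in control (edgeR adjusted p = 0.0404) and -1.06 ± 0.19 in Mbd3del mice (adjusted p = 0.00326) from HSCs to LMPPs. From LMPPs to ALPs they were -1.98 ± 0.30 (edgeR adjusted p = 0.00365) and -1.37 ± 0.25 (adjusted p = 0.00836). Ifitm2 was at 425 to 634 CPM in control HSCs and 327 to 631 in LMPPs, a step that was not called, and fell to 84.0 to 217 in control ALPs, by 1.67 ± 0.30 on the log2 scale (edgeR adjusted p = 0.0122, and 0.109 with mice as a block). In Mbd3del mice Ifitm2 went from 233 to 456 CPM in LMPPs to 98.9 to 287 in ALPs, a log2 difference of -0.82 ± 0.27 that was not called (edgeR adjusted p = 0.188).

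**Figure D2:**
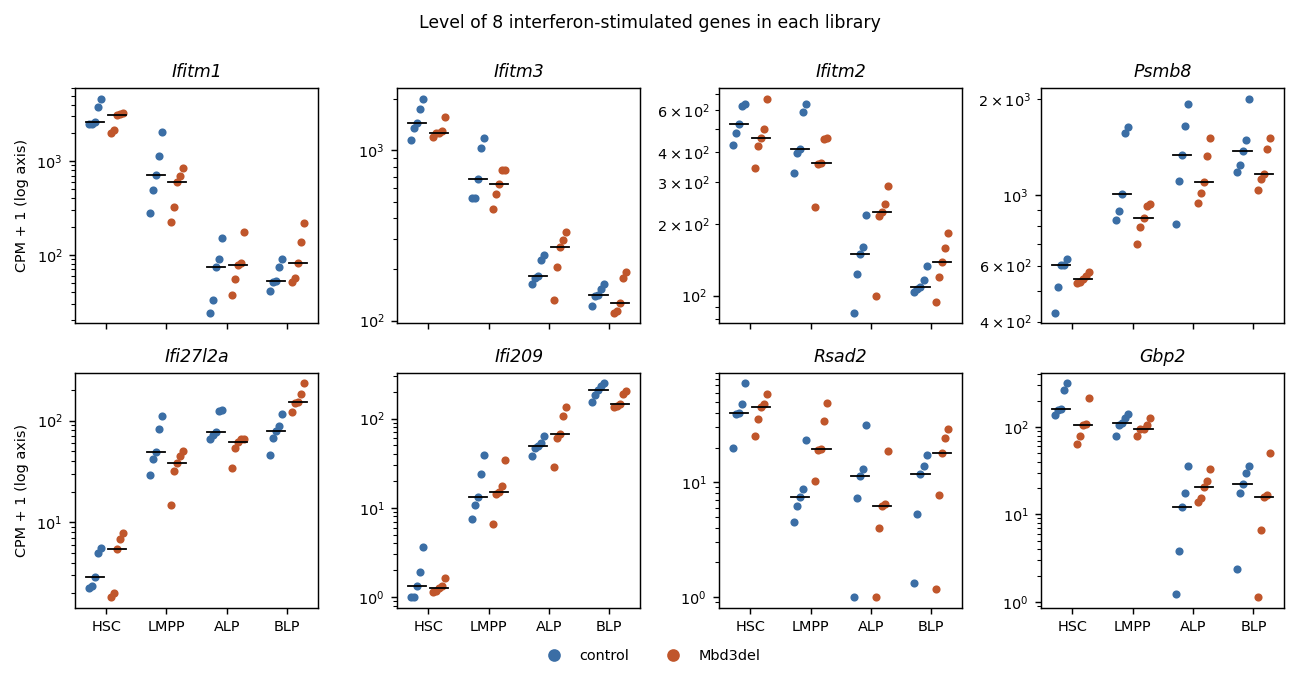
Level of 8 members in every library (y axis: CPM + 1 on a log axis; x axis: population; points: control libraries in blue and Mbd3del libraries in orange, 5 per group; bars: medians). Ifitm1 and Ifitm3 fall from HSCs to ALPs, where Ifitm1 is at 23.1 to 176 CPM, and Ifi209 and Ifi27l2a have higher medians outside HSCs.

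A pair of members ran the other way. Ifi209, an AIM2-like gene of the cluster of DNA-sensor and interferon-inducible genes on chromosome 1, was near 0 in HSCs and had its highest mean in BLPs, with 1 called step in control and 2 in Mbd3del mice. It stood at 0, 0, 0.315, 0.913 and 2.61 CPM in control HSCs, 6.58, 9.85, 12.2, 22.8 and 38.4 in LMPPs, 37.5, 45.3, 48.4, 52.8 and 62.3 in ALPs and 154, 183, 208, 231 and 249 in BLPs. In Mbd3del mice it stood at 0.147 to 0.623 in HSCs, 5.65 to 33.6 in LMPPs, 27.4 to 134 in ALPs and 133 to 201 in BLPs. In control mice the last step did not overlap and was called at a log2 difference of 2.03 ± 0.26 (edgeR adjusted p = 0.00141), while the first step, 4.51 ± 1.26, was not (edgeR adjusted p = 0.0543). In Mbd3del mice the first step was called at 5.73 ± 0.85 (edgeR adjusted p = 0.000642), from 8 counts in all 5 HSC libraries together to 588 in LMPPs, and the step from LMPPs to ALPs at 2.22 ± 0.50 (edgeR adjusted p = 0.0323, and 0.12 with mice as a block).

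Ifi27l2a, a small gene on chromosome 12 whose product belongs to the ISG12 family of mitochondrial and membrane proteins, rose from HSCs to LMPPs in both genotypes. Control libraries held 1.26, 1.35, 1.87, 3.96 and 4.56 CPM in HSCs, 28.1, 40.6, 48.5, 82.3 and 110.0 in LMPPs, 65.2, 71.5, 75.5, 124 and 126 in ALPs and 44.8, 66.0, 77.6, 87.0 and 115 in BLPs. Mbd3del libraries held 0.830, 1.02, 4.44, 5.75 and 6.86 in HSCs, 13.8, 31.0, 37.4, 44.3 and 49.2 in LMPPs, 33.1, 52.8, 60.0, 64.1 and 64.5 in ALPs and 119, 149, 153, 181 and 232 in BLPs. All HSC libraries lay below all LMPP libraries. Control ALPs and BLPs overlapped, and every Mbd3del BLP library lay above every Mbd3del ALP library. The first step was 4.55 ± 0.59 in control (edgeR adjusted p = 0.000401) and 3.18 ± 0.64 in Mbd3del mice (adjusted p = 0.00597). The last step was called in Mbd3del mice at 1.61 ± 0.26 (edgeR adjusted p = 0.00852, and 0.0521 with mice as a block) and was -0.27 ± 0.33 in control mice (adjusted p = 0.998). The difference between the genotypes at this step was 1.88 ± 0.41 (edgeR adjusted p = 0.359, and called by DESeq2).

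Of the antigen-processing members, Psmb8 rose from HSCs to LMPPs. It stood at 426, 511, 600.1, 603 and 629 CPM in control HSCs and at 832, 892, 1010.1, 1569 and 1636 in control LMPPs, and at 529.7, 531, 545, 557 and 572 in Mbd3del HSCs and 701, 792, 849, 922 and 934 in Mbd3del LMPPs. HSCs and LMPPs did not overlap in either genotype, and Psmb8 stayed at 809.8 CPM or above in every ALP and BLP library. The log2 difference was 1.10 ± 0.23 in control (edgeR adjusted p = 0.0101) and 0.62 ± 0.16 in Mbd3del mice (adjusted p = 0.0332, and 0.0668 with mice as a block). Psmb9, the partner subunit LMP2, and Tap1, a subunit of the peptide transporter, lie head to head on chromosome 17 and were not called at any step. In control mice Psmb9 went from 125 to 249 CPM (HSCs) up to 194 to 404 (BLPs), and Tap1 from 22.4 to 81.0 (HSCs) up to 108 to 199 (BLPs).

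The GBP genes encode GTPases that coat vacuoles and microbes. Gbp2 was at 135 to 316 CPM in control HSCs, 77.5 to 142 in LMPPs, 0.243 to 34.7 in ALPs and 1.41 to 35.0 in BLPs. In Mbd3del mice it was at 62.8, 77.6, 104, 107 and 214 in HSCs, 78.8, 94.9, 94.9, 105 and 125 in LMPPs, 12.7, 14.6, 19.7, 22.9 and 32.4 in ALPs and 0.138, 5.73, 14.9, 15.9 and 49.2 in BLPs. LMPPs and ALPs did not overlap in either genotype. The step from LMPPs to ALPs was called in Mbd3del mice at -2.30 ± 0.31 (edgeR adjusted p = 0.000844) and was -3.09 ± 0.78 in control mice (adjusted p = 0.104). Gbp7 fell from 187 to 308 CPM in Mbd3del HSCs to 59.6 to 151 in LMPPs, by 1.21 ± 0.26 on the log2 scale (edgeR adjusted p = 0.0104). Gbp3 (14.5 to 125 CPM in HSCs and LMPPs), Mx1 (0 to 32.8 CPM in any library) and Mx2 (0 to 52.6 CPM) were not called at any step.

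Further members were called at 1 step in 1 genotype. Rsad2 went from 18.8, 38.3, 38.8, 47.0 and 71.8 CPM in control HSCs to 3.51, 5.18, 6.47, 7.78 and 22.3 in LMPPs, with 1 LMPP library inside the HSC range, a log2 difference of -2.23 ± 0.59 (edgeR adjusted p = 0.0424, and 0.0841 with mice as a block). Ifi44, a GTP-binding protein that restricts RNA viruses, went from 201 to 624 CPM to 68.2 to 201 at the same step, without overlap, a log2 difference of -1.35 ± 0.36 (edgeR adjusted p = 0.0439). Rtp4, a receptor chaperone that binds viral RNA complexes, went from 256 to 1052 CPM in control LMPPs to 93.8 to 216 in ALPs, -1.92 ± 0.39 (edgeR adjusted p = 0.0252, and 0.159 with mice as a block). Isg20, an exonuclease for single-stranded RNA, went from 22.0 to 79.9 CPM in Mbd3del LMPPs to 4.67 to 15.4 in ALPs, -2.01 ± 0.47 (edgeR adjusted p = 0.0399, and 0.172 with mice as a block). In control mice the same groups of Isg20 did not overlap either (41.5 to 108 and 7.23 to 32.3 CPM), and the difference was -1.90 ± 0.45 (edgeR adjusted p = 0.0721). Trim30a, a regulator of Toll-like receptor signalling, went from 217 to 329.6 CPM in Mbd3del HSCs to 92.6 to 217 in LMPPs, with the ranges just crossing, -0.87 ± 0.25 (edgeR adjusted p = 0.0471, and 0.0521 with mice as a block).

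Oas3, another oligoadenylate synthetase, all but disappeared from Mbd3del BLPs. Its libraries there were at 0, 0, 0.138, 0.157 and 0.168 CPM, against 2.39, 2.78, 6.01, 6.60 and 9.83 in Mbd3del ALPs and 0, 0.614, 4.15, 8.92 and 17.5 in control BLPs. All 5 Mbd3del BLP libraries lay below all Mbd3del ALP libraries, whereas the control BLP range included 0. The step rested on 189 counts in ALPs and 3 in BLPs, a ratio of 50.4 with a 95% interval of 17.0 to 246 that covers counting error only (edgeR adjusted p = 0.0416, and 0.22 with mice as a block).

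The counts by step, with the share of all genes called, were as follows. From HSCs to LMPPs, 2 members rose and 4 fell of 42 tested in control mice, where 5.99% of all genes were called (2.82% higher and 3.18% lower), and 3 rose and 4 fell of 43 in Mbd3del mice, where 6.74% were (2.99 and 3.75%). From LMPPs to ALPs, 0 rose and 4 fell of 44 in control (0.938% of all genes called, 0.469% in each direction), and 1 rose and 4 fell of 43 in Mbd3del mice (2.18%, 1.11% higher and 1.07% lower). From ALPs to BLPs, 1 rose of 44 in control (0.266%, 0.238% higher and 0.0275% lower), and 1 rose and 1 fell of 40 in Mbd3del mice (0.636%, 0.507 and 0.129%). The control and Mbd3del steps use different mice. At the first step 4 members were called in both genotypes, which is 4 of 6 in control and 4 of 7 in Mbd3del mice. At the second step 2 were, of 4 and of 5, and at the third 0 were, of 1 and of 2. The matching share over all called genes is not given here, so this overlap is not read as particular to the members.

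Medians over the members tested add what the calls leave out. They were -0.27, -0.08 and 0.09 for the 3 control steps and -0.04, -0.50 and 0.29 for the Mbd3del steps, where the medians of all genes lay between -0.04 and 0.03. Groups that did not overlap were more often lower than higher at the second step: 9 members were lower and 0 higher in control (1.68 and 1.84% of all genes), and 7 were lower and 1 higher in Mbd3del mice (2.66 and 2.23%). At the first step 3 were higher and 2 lower in control (3.67 and 5.5% of all genes) and 3 and 3 in Mbd3del mice (4.12 and 5.17%). At the third step 1 was higher and 1 lower in control (0.926 and 0.504%) and 2 and 1 in Mbd3del mice (1.88 and 0.978%). No member's step differed between the genotypes by edgeR's quasi-likelihood test in any of the 3 steps (smallest adjusted p 0.745, 0.999 and 0.359, where 0% of all genes were called). At an unadjusted p under 0.05 there were 3, 3 and 5 members, against 5.13, 4.51 and 4.03% of all genes, and DESeq2 called 0, 0 and 1 (0.215, 0.123 and 0.0825% of all genes).

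Of the 25 step calls, 8 held under every alternative run: Ifi27l2a at the first step in both genotypes, Ifi209 at the third step in control and the first in Mbd3del mice, Ifitm1 at both early steps and Ifitm3 at the first in Mbd3del mice, and Gbp2 at the second in Mbd3del mice. With mice as a block 16 calls held and 9 were lost, which at the second control step left Ifitm1 and Ifitm3 of the 4, and at the third Mbd3del step none of the 2. Call counts also changed in fits with a single mouse left out, which hold fewer libraries. Shares of all genes called in those fits are not given here, and the part of any single library was not tested. The first control step kept 1 call without mouse10380 or mouse10381 and 3 without mouse10357 or mouse10358. The second control step kept 0 without mouse10381 and 2 without mouse10358, and the first Mbd3del step kept 4 without mouse10360 or mouse10361. The second Mbd3del step kept 2 without mouse10360 and 3 without mouse10361, and the third kept 0 without mouse10360 and 1 without any other mouse.

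Markers of other cell types differed at these steps. Of 9 marker lists, the summed levels of 4, 4 and 1 did not overlap at the 3 control steps and those of 4, 6 and 3 at the Mbd3del steps. The megakaryocyte and platelet list of 6 genes summed to 483 to 688 CPM in control HSCs and 31.9 to 159 in control LMPPs, and the plasmacytoid dendritic cell list of 7 genes to 199 to 512 CPM in control LMPPs and 822 to 1386 in control ALPs. In control LMPPs the T and NK cell list of 7 was at 402 to 1232 CPM (17.1 to 63.1 in HSCs), the neutrophil list of 7 at 207 to 799 (7.43 to 173) and the classical dendritic cell list of 7 at 481 to 949 (156 to 211), with the T and NK markers Cd3e, Cd3g, Gzmb and Ncr1 at 0 in both populations. The classical dendritic cell list holds Flt3, by which LMPPs were gated, so its rise is in part set by the sort. Its markers Clec9a and Cd209a were at 0 in control LMPPs. From control LMPPs to ALPs the monocyte and macrophage list went from 490.1 to 839 CPM to 164 to 438, and the stromal and endothelial list from 39.6 to 104 to 8.52 to 26.6. From ALPs to BLPs the mature B and plasma cell list of 6 went from 0.116 to 21.2 CPM to 87.6 to 578 in control mice, with Ms4a1 at 0 in both. Their part in the steps was not tested. Siglech, a defining marker of plasmacytoid dendritic cells, was at 1.91 CPM or less in every HSC and LMPP library.

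Between genotypes no tested member was called in any population. The expression filter left Ifi209 untested in HSCs, Dtx3l in LMPPs, Zbp1 in ALPs and Oas3 in BLPs. A joint fit of all libraries did test Oas3 in BLPs and called it (log2 difference -5.69, edgeR adjusted p = 0.0234). The number called was 0 of 43 members tested in HSCs, LMPPs, ALPs and BLPs alike, where edgeR's quasi-likelihood test called 0.0176, 0.0183, 0.0182 and 0.0743% of all genes, and 0 of 44 in the comparison of mice summed over populations, where it called 0.173%. DESeq2 called 0 members in HSCs, LMPPs and ALPs, 2 in BLPs and 1 over populations, where it called 0.123, 0.33, 0.127, 1.47 and 1.18% of all genes. Mbd3 itself was called in HSCs, LMPPs and BLPs and over populations, and in ALPs it was at -6.09 ± 1.05 without passing the test (edgeR adjusted p = 0.128). At an unadjusted p under 0.05 there were 4 members in HSCs, 3 in LMPPs, with 2 in ALPs and 8 in BLPs, which is 9.30, 6.98, 4.65 and 18.6% of the members against 4.11, 5.19, 2.3 and 8.31% of all genes.

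The signs leaned one way. The log2 difference, Mbd3del minus control, was negative for 32 of 43 members in HSCs, 29 in LMPPs, with 35 in ALPs and 28 in BLPs, against 48.5, 48.9, 53.7 and 52.3% of all genes. The medians were -0.27, -0.24, -0.43 and -0.33, with all-gene medians of 0.02, 0.01, -0.04 and -0.03. Summed over populations, 36 of 44 members (81.8%) were negative against 50.1% of all genes, with a median of -0.32 against 0.00, and 11 members (25.0%) had an unadjusted p under 0.05, all of them lower, against 8.03% of all genes in either direction and 3.98% lower. Members share libraries and vary together in part, so these counts are a description and not a test. Control mouse10372 had high levels of many members: without it the LMPP median was -0.05, and without mouse10372 and mouse10381 together it was 0.14, with 19 of 44 negative. Without both mice 27 of 43 members were negative in ALPs, with 0 at an unadjusted p under 0.05, 28 of 43 in HSCs and 24 of 43 in BLPs, and the medians were -0.33, -0.15 and -0.21. Over populations the median was -0.25 without both mice, with 30 of 44 negative and 9 members at an unadjusted p under 0.05. Shares and medians of all genes in the fits that leave mice out are not given here, so these values are not set against them.

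**Figure D3:**
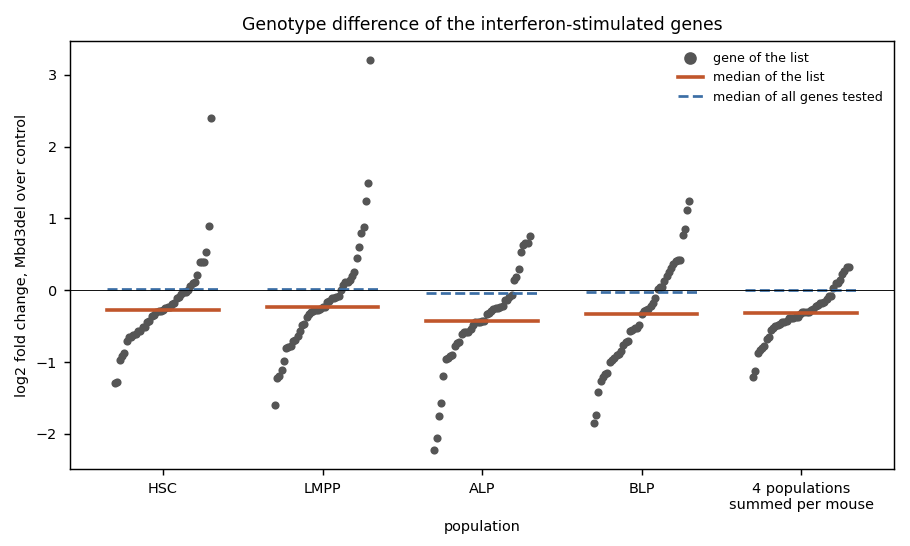
Log2 fold change, Mbd3del minus control, of each member tested in each population and summed over populations (points: members; orange line: median of the members; dashed blue line: median of all genes tested). The medians lie at -0.24 to -0.43, and single members lie on both sides of 0.

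By role, the summed comparison was negative for 3 of 4 signalling factors, 4 of 4 of the ISG15 system, 3 of 3 IFIT genes, 6 of 8 RNA sensors and OAS genes, 5 of 5 Mx and GBP genes, 3 of 3 IFITM genes, 2 of 3 nucleotide and RNA enzymes, 3 of 3 antigen-processing genes, 2 of 3 of the Parp9, Parp14 and Dtx3l group and 5 of 8 others. The Mx and GBP genes had the lowest median, -0.65, with Mx2 at -1.12 ± 0.39 (edgeR adjusted p = 0.444), Mx1 at -0.83, Gbp3 at -0.65, Gbp7 at -0.44 and Gbp2 at -0.43. Mx2 is annotated as a polymorphic pseudogene, and the mean levels of Mx1 and Mx2 over all libraries were low, 8.06 and 11.8 CPM. The smallest adjusted p belonged to Isg20, at -0.81 ± 0.22 (edgeR adjusted p = 0.251, and 0.0384 by DESeq2), with means of 55.9 ± 11.3 and 32.2 ± 9.28 CPM (SD, n = 5). Irf9, the DNA-binding partner of STAT2, was at 173 ± 27.7 in control and 125 ± 12.2 in Mbd3del mice, -0.48 ± 0.14 (edgeR adjusted p = 0.282). Zbp1, the sensor of Z-form nucleic acids that starts necroptosis, was the member whose summed groups did not overlap, at 8.55 ± 1.32 and 3.73 ± 1.83 CPM (1 member lower and 0 higher, against 1.09 and 1.12% of all genes), a log2 difference of -1.20 ± 0.40 (edgeR adjusted p = 0.419).

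In BLPs the named differences had both signs, and none passed edgeR's test. Ifi27l2a was higher in every Mbd3del library (119 to 232 CPM) than in any control library (44.8 to 115), at 1.11 ± 0.27 (edgeR adjusted p = 0.175, and 0.0111 by DESeq2). Tap1 was lower in every Mbd3del library, at 66.4, 69.2, 86.1, 90.8 and 91.1 CPM against 108, 129, 153, 168 and 199, a difference of -0.90 ± 0.22 (edgeR adjusted p = 0.195, and 0.0217 by DESeq2). Irf9 (90.1 to 142 against 146 to 372 CPM, -0.76 ± 0.26, edgeR adjusted p = 0.382) and Mx2 (0.593 to 12.7 against 19.2 to 32.9 CPM, -1.85 ± 0.65, edgeR adjusted p = 0.399) did not overlap either. In all, 1 member was higher and 3 were lower without overlap, where 1.67 and 1.04% of all genes were. Trim30d was at 39.4 to 106 CPM against 16.1 to 63.6, 1.24 ± 0.42 (edgeR adjusted p = 0.378).

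Of 9 marker lists of other cell types, 1 did not overlap between the BLP groups: the monocyte and macrophage list of 10 summed to 139.8 to 195 CPM in control and 222 to 467 in Mbd3del BLPs, with Adgre1, Fcgr1 and Vcam1 among those at 0 in both groups. The plasmacytoid dendritic cell list of 7 overlapped and summed to 837 to 2029 CPM in control and 1716 to 4070.2 in Mbd3del BLPs, with Klk1 at 0 in every Mbd3del BLP library. Siglech went from 153 to 495 CPM in control to 371 to 1186 in Mbd3del BLPs, and Ly6c2 from 11.8 to 44.7 CPM in control to 119.7 to 433 in Mbd3del BLPs. Their part in the BLP differences was not tested.

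In the other populations no named difference passed edgeR's test, and some of the members named had few counts or wide spread. In HSCs, Zbp1 was at 9.52, 10.8, 12.8, 18.4 and 23.3 CPM in control and 2.78, 3.73, 7.36, 7.68 and 8.99 in Mbd3del libraries, without overlap (1 member lower and 0 higher, against 0.414 and 0.537% of all genes), and the difference was -1.28 ± 0.60 (edgeR adjusted p = 0.955). Herc6, a ligase of the ISG15 system, was at 41.3 to 89.4 against 25.3 to 52.2 CPM (-0.97 ± 0.32, edgeR adjusted p = 0.955), and Irf1, a factor induced by interferon gamma, ran the other way at 35.1 to 98.9 against 62.7 to 199 CPM (0.90 ± 0.36, edgeR adjusted p = 0.955). The classical dendritic cell list of 7 markers summed to 156 to 211 CPM in control and 259.6 to 395 in Mbd3del HSCs, with Cd209a at 0 in both, and its part in these differences was not tested. In LMPPs, Gbp3 was at 41.6 to 125 against 14.5 to 46.3 CPM (-1.19 ± 0.41, edgeR adjusted p = 0.885), and 0 members were without overlap (0.806% of all genes higher and 0.687% lower). Rsad2 was at 3.51 to 22.3 against 9.16 to 47.7 CPM there (1.49 ± 0.65, edgeR adjusted p = 0.937). The megakaryocyte and platelet list summed to 31.9 to 159 CPM in control and 146 to 254 in Mbd3del LMPPs, with medians of 62.8 and 195, and its part was not tested.

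In ALPs, Ifi27l2a was at 65.2 to 126 CPM in control and 33.1 to 64.5 in Mbd3del libraries, the reverse of its order in BLPs and without overlap (1 member lower and 0 higher, against 0.372 and 0.418% of all genes). The difference was -0.77 ± 0.32 (edgeR adjusted p = 1). Irf7, the factor that amplifies interferon production, was at 6.33 to 55.3 against 6.32 to 32.0 CPM (-1.19 ± 0.59, edgeR adjusted p = 1). Oas2 differed by -2.22 ± 1.47 (edgeR adjusted p = 1), with control mouse10372 at 55.3 CPM and the other 4 control libraries at 0 to 7.32, and by 0.59 without mouse10372 and mouse10381. Zbp1 was at 0 in 4 of 5 Mbd3del ALP libraries and was not tested there.

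Of the remaining members named by role, none was called in any comparison. Stat2 lay at 8.39 to 87.6 CPM in all 40 libraries, and Isg15 at 0 to 11.7. Usp18, the protease that removes ISG15 and damps the receptor, lay at 8.84 to 186 CPM with a difference of -0.68 over populations (edgeR adjusted p = 0.498). Ifit1 lay at 0.157 to 181 CPM and Ifit2 at 0.247 to 102, and both had their lowest mean in ALPs in both genotypes. Ifih1, the RNA sensor MDA5, lay at 27.1 to 178 CPM in HSCs and 0 to 47.6 in ALPs and BLPs. Oas1a lay at 8.16 to 102 CPM, Oasl2 at 1.73 to 215, Xaf1 at 34.5 to 297, Parp14 at 3.76 to 140.02 and Eif2ak2 at 0.793 to 53.0. Reads of overlapping genes cannot be told apart without strand, which touches Irf7 with Phrf1, Irf9 with Rnf31, Rtp4 with Masp1, Parp9 with Dtx3l, Psmb9 with Tap1, Irf1 with Gm17334 and Ifitm2 with Gm45717. Reads shared within the IFIT, OAS, GBP, Trim30 and IFITM families may also be split unevenly.

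A list of 92 further pathway genes was measured beside the members. Of the 9 interferon ligands, 7 had 0 counts in all 40 libraries and Ifne and Ifnl2 had 1 count each, where 0 counts in a library allow up to 0.330 to 1.01 CPM. The receptor chains were present: in control mice Ifnar2 rose from 35.6 to 70.9 CPM in HSCs to 79.9 to 171 in LMPPs (1.52 ± 0.31, edgeR adjusted p = 0.0094), and in Mbd3del mice it rose by 1.11 ± 0.25 (adjusted p = 0.0135). Ifnar1 rose at that step in Mbd3del mice by 1.16 ± 0.32 (edgeR adjusted p = 0.0436, and 0.111 with mice as a block). Tmem173, which encodes the DNA-signalling adaptor STING, rose by 1.49 ± 0.24 in control (edgeR adjusted p = 0.00171) and 1.53 ± 0.28 in Mbd3del mice (adjusted p = 0.00366). Tlr7, the endosomal sensor of single-stranded RNA, was at 0 to 1.31 CPM in control HSCs and 33.7 to 86.7 in control LMPPs (edgeR adjusted p = 0.000172). Uba7 and Ube2l6, the activating and conjugating enzymes for ISG15, fell from HSCs to LMPPs in control mice by 1.37 ± 0.24 (edgeR adjusted p = 0.00372) and 0.91 ± 0.20 (adjusted p = 0.016).

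By step, 5 pathway genes rose and 6 fell from HSCs to LMPPs in control and 7 rose and 6 fell in Mbd3del mice, of 76 tested each (14.5 and 17.1% of them, against 5.99 and 6.74% of all genes). From LMPPs to ALPs 1 rose and 1 fell of 74 in control, and 1 rose and 4 fell of 72 in Mbd3del mice (2.70 and 6.94%, against 0.938 and 2.18%). From ALPs to BLPs 1 rose of 72 in control and 2 rose of 73 in Mbd3del mice (1.39 and 2.74%, against 0.266 and 0.636%). Of these 34 calls 9 were lost with mice as a block, and 13 held under every alternative run. Irf8, a factor of dendritic and B cell development that also binds ISREs, rose from LMPPs to ALPs in control mice, with libraries at 15.1 to 108 CPM before and 401 to 718 after (3.94 ± 0.56, edgeR adjusted p = 0.00258) and by 3.66 ± 0.54 in Mbd3del mice (adjusted p = 0.00189).

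Between genotypes 0 pathway genes were called by edgeR's quasi-likelihood test, with 8, 1, 5 and 9 at an unadjusted p under 0.05 in HSCs, LMPPs, ALPs and BLPs (of 74, 71, 73 and 73 tested) and 12 of 80 over populations. These are 10.8, 1.41, 6.85, 12.3 and 15% of them, against 4.11, 5.19, 2.3, 8.31 and 8.03% of all genes. Over populations 51 of the 80 (63.8%) were negative, against 50.1% of all genes, with a median of -0.11. All 7 of 7 genes of the MHC class I pathway list (H2-K1, H2-D1, B2m, Tap2, Tapbp, Psmb10 and Nlrc5) were negative too. Jak1 was at -0.02 and Ifnar1 at 0.06. DESeq2 called 5 in BLPs, where it called 1.47% of all genes: Ly6e and Irf8, which were higher, and Tap2, H2-K1 and Nlrc5, which were lower. Nlrc5, the transactivator of MHC class I genes, was at 101 to 125 CPM in control and 32.1 to 80.3 in Mbd3del BLPs (-1.05 ± 0.26, edgeR adjusted p = 0.195). Irf8 was at 504 to 936 and 1012 to 1665 CPM (0.90 ± 0.20, edgeR adjusted p = 0.139). These were named after their values were seen.

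How far the members vary together between libraries of one group was described on log2(CPM + 1) values after subtracting each group's mean, for the 42 members with a mean of at least 5 CPM (Isg15 and Dtx3l were below). The mean of the 861 pairwise correlations was 0.05, against 0.0066 over 10191 genes treated alike. On CPM without TMM scaling, added after seeing the data, it was 0.048 against 0.033 over all genes. Of the pairs, 57.1% were above 0, 27 were above 0.5 and 64 were below -0.3. All points are the same 40 libraries of 10 mice, which share depth and cDNA quality between genes, so no p is attached. Within HSC libraries the mean was 0.057, within LMPPs 0.039, within ALPs -0.00099 and within BLPs 0.105. It was 0.086 over the 20 control libraries and 0.0085 over the 20 Mbd3del libraries. Leaving out 1 mouse gave 0.031 (without mouse10357) to 0.056.

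**Figure D4:**
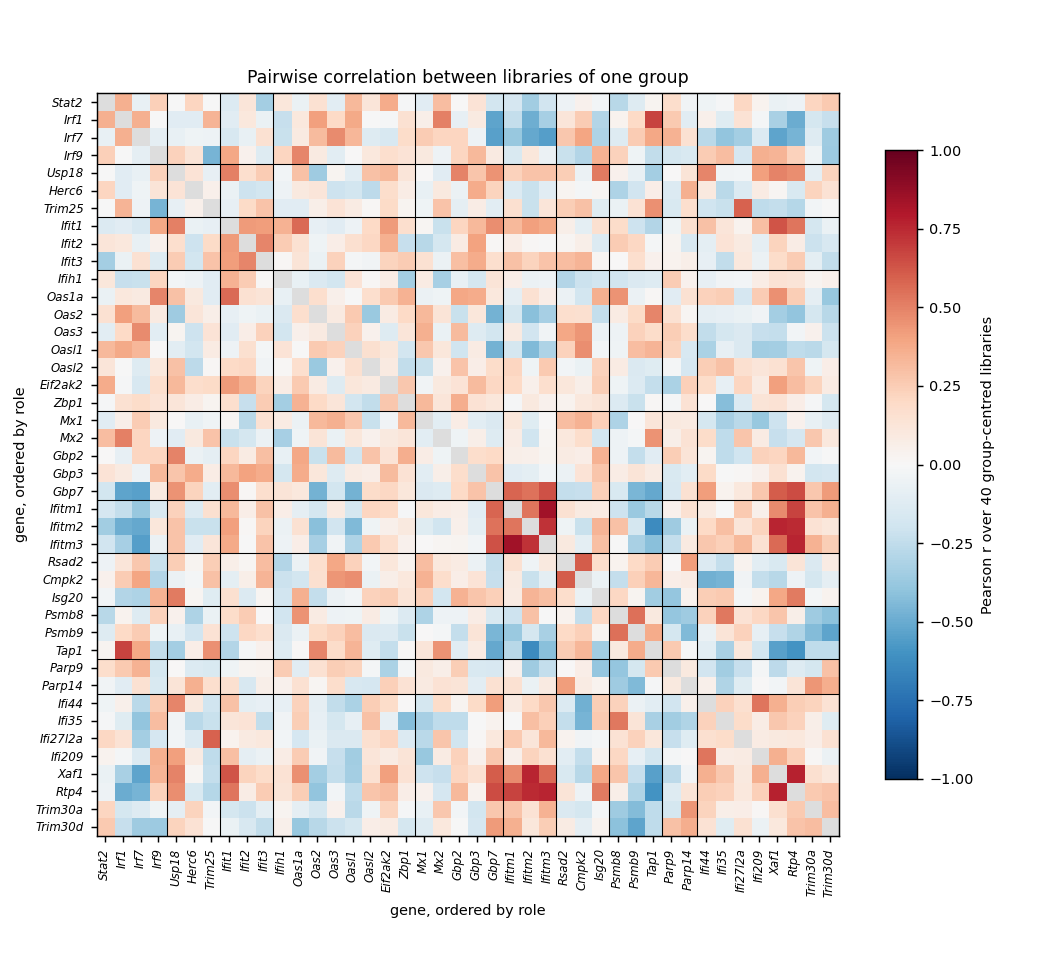
Pearson r between each pair of the 42 members over 40 group-centred libraries (colour: r; members ordered by role, with lines between roles). The IFITM block is at a mean of 0.70, and most other cells are pale.

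Members of some families moved together. The mean r within a role was 0.70 for the 3 IFITM genes, 0.44 for the 3 IFIT genes and 0.34 for the 3 antigen-processing genes, against 0.13 for the signalling factors and 0.03 for the Mx and GBP genes. Single pairs were led by Ifitm1 with Ifitm3 (0.84), Xaf1 with Rtp4 (0.77), Ifitm3 with Rtp4 (0.76), Ifitm2 with Xaf1 (0.76) and Irf1 with Tap1 (0.68), followed by Rsad2 with Cmpk2 (0.61), whose genes are neighbours, Ifit1 with Oas1a (0.56) and Psmb8 with Psmb9 (0.55). The 20 pairs within 200 kb of each other had a mean r of 0.32, with 19 above 0, and the other 841 pairs a mean of 0.039, with 473 above 0. Some pairs ran against each other: Ifitm2 with Tap1 (-0.63), Rtp4 with Tap1 (-0.59), Irf7 with Ifitm3 (-0.55) and Trim30d with Psmb9 (-0.53).

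Library measures moved with part of this pattern. The first principal component of all genes within groups had r of -0.96 with the log2 scaling factor, -0.85 with the number of detected genes and 0.90 with the mitochondrial share. Of the members, 9 of 42 (21.4%) had an r beyond 0.5 in size with it, against 27.9% of all genes: Ifitm2 (0.79), Xaf1 (0.76), Rtp4 (0.70), Gbp7 (0.70) and Ifitm3 (0.59) on one side and Tap1 (-0.70), Irf7 (-0.70), Irf1 (-0.62) and Oas2 (-0.56) on the other. In residuals on the scaling factor and the number of detected genes, Ifitm1 with Ifitm3 was at 0.80, Ifitm3 with Rtp4 at 0.61, Xaf1 with Rtp4 at 0.55 and Psmb8 with Psmb9 at 0.62. Rsad2 with Cmpk2 was at 0.58, Ifit1 with Oas1a at 0.53 and the negative pair Trim30d with Psmb9 at -0.49. Ifitm2 with Tap1 went from -0.63 to -0.32, Rtp4 with Tap1 from -0.59 to -0.28 and Irf7 with Ifitm3 from -0.55 to -0.21. Positive pairs also weakened: Ifitm2 with Xaf1 went from 0.76 to 0.51, Irf1 with Tap1 from 0.68 to 0.48 and Gbp7 with Xaf1 from 0.60 to 0.14. The mean over all 861 pairs was 0.059 in these residuals. The part of library quality in the rest was not tested.

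Against the mean of the other members, r was 0.47 for Eif2ak2, 0.46 for Ifit1, 0.44 for Usp18, 0.43 for Ifit3, 0.41 for Rsad2 and 0.39 for Oas1a. In all, 10 of 42 members were above 0.3 and 8 below 0, with Ifi35 lowest at -0.29. The IFITM genes, which moved together, had an r of 0.13 with the mean of the rest (0.28 in the residuals on library measures), and the antigen-processing genes one of 0.0013 (0.0067). The median r with the rest was 0.25 for the 15 members with an ISRE-like match in the promoters above and 0.13 for the 18 without. Outside the list, the 15 genes most like the members' mean, led by Dnajb4 (0.64), Atrx (0.62) and Dnm1l (0.60), held 0 pathway genes. The 74 pathway genes at 5 CPM or above had a median r of 0.093, against -0.0065 over 10149 genes, with Iigp1 at 0.54 and Jak1 at 0.45. All are correlations over 40 libraries.

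**Figure D5:**
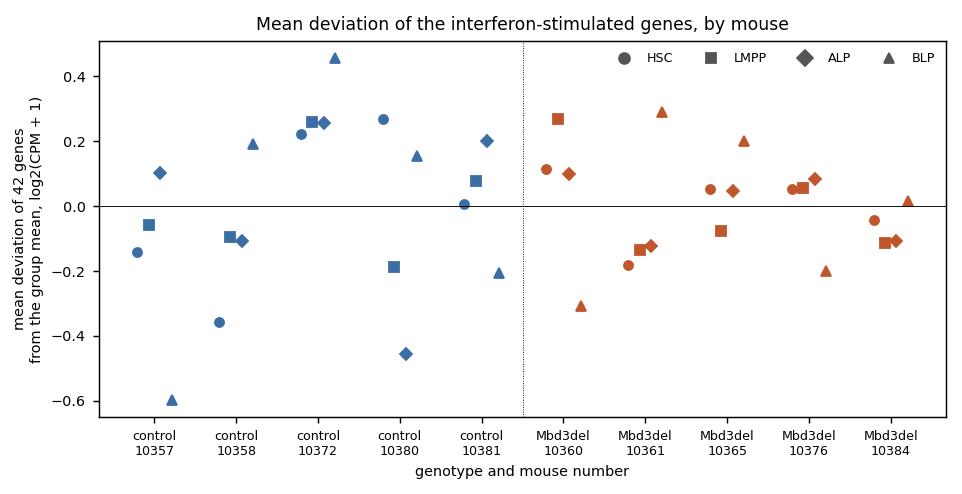
Mean deviation of the 42 members from their group mean (y axis: log2(CPM + 1) units) for each mouse (x axis: 5 control mice in blue and 5 Mbd3del mice in orange) in each population (symbols). Control mouse10372 is above 0 in all 4 populations, and control mouse10357 is lowest in BLPs.

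The mean deviation of the members from their group, in log2 units, was followed from mouse to mouse. Control mouse10372 was above its group in HSCs (0.22), LMPPs (0.26), ALPs (0.26) and BLPs (0.46). It was the highest of 5 for 13, 20, 16 and 15 of the 42 members in these populations. No other mouse was above 0 in all 4 populations or below 0 in all 4: the others were above it in 1 to 3. Control mouse10357 was at -0.60 in BLPs, where it was highest for 0 members and lowest for 21, and control mouse10380 was at 0.27 in HSCs and -0.45 in ALPs. Between control libraries of one group the SD of this mean was 0.26 in HSCs, 0.17 in LMPPs, with 0.29 in ALPs and 0.41 in BLPs, and between Mbd3del libraries 0.12, 0.17, 0.11 and 0.25. The members' mean had an r of -0.16 with log2 depth, 0.022 with the number of detected genes and -0.15 with the mitochondrial share over the 40 libraries.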

How the data were processed

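The labels describe RNA of sorted pools made into Smart-seq2 and Nextera XT libraries. Pools held 150 cells for HSCs and 100 for the other populations per the labels' cell number fields, and the series' design text gives the reverse. The authors deposited raw read counts per feature. The submitters' processing notes name STAR 2.5.2b, HTSeq 0.6.1p1 and GRCm38. No source used here gives the annotation release or strand setting. Of 128910 features, 49585 are genes (49326 with a GENCODE M21 symbol) and 79325 are named repRegion, which were left out (0.205 to 2.28% of counts).

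Each comparison was fitted on its own libraries with edgeR 4.0.16 in R 4.3.3 (quasi-likelihood test, legacy estimator with robust fit, TMM scaling, filterByExpr with a minimum count of 10 and a minimum total of 15) and adjusted over all genes tested by Benjamini-Hochberg at 0.05. Genotypes were compared within each population and on counts summed per mouse. Deeper libraries weigh more in that sum, so the summed differences also depend on the depth of each population's library. Steps between populations were fitted per genotype, and their difference as an interaction. The interaction was not run with mice as a block, so libraries of the same mouse counted as independent in it. The fits were tested on simulated data. DESeq2 1.42.0, other scalings, filters and estimators, labelled sex, a joint fit of all libraries, mice left out and mice as a block were alternatives. The populations of a mouse are paired by the animal. The median correlation of same-mouse deviations was 0.019 to 0.061 over the steps, with single mice at -0.187 to 0.218. Between different mice the medians were -0.025 to 0.00034. Correlations used log2(CPM + 1) after subtracting group means, and residuals, unscaled CPM and genotypes apart were added after seeing the data.

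Members, pathway and marker lists were chosen with earlier results of these data known. Members were named with values by a set list of roles, by a passed threshold (at most 12 per direction) or, in a comparison with none, as the 5 with the largest differences at a mean of 5 CPM or above in the higher group. Pathway genes were named when past the threshold (at most 6 per comparison) or from a set list of receptors, kinases and factors. Members named for groups that did not overlap, for their correlations or as single libraries were chosen after their values were seen. Intervals and limits cover counting error only, since Smart-seq2 reads carry no molecular identifiers. A pathway gene of the named list and a marker gene are not reported here.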

Additional observations from a re-analysis of the deposited data

Results flagged for a closer look

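In groups of 5 libraries, a library was singled out when its distance to the nearest other library took up most of the group's range (over 0.71 of it, Dixon's 95% limit). This held for 34 of the 368 groups of values examined (9.24%). Chance singles out about 1 in 20 groups of independent, normally distributed values, which CPM of genes from shared libraries are not, so the share is a description. Of the 34, 31 were the highest library of their group and 3 the lowest.

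Control mouse10372 accounts for 11 of them, all as the highest. In ALPs these are Oas2 (55.3 CPM, the others 0 to 7.32), Mx2 (22.7, others 4.14 to 8.90), Trim25 (149, others 70.5 to 77.1) and Tap1 (343, others 66.3 to 140.4). In BLPs they are Isg15 (8.17), Ifit3 (32.8), Ifih1 (46.1, others 6.43 to 14.7) and Gbp3 (171, others 38.1 to 50.0). In LMPPs they are Gbp7 (361, others 115 to 154), Rtp4 (1052, others 256 to 467) and Eif2ak2 (53.0, others 0.793 to 7.42). This LMPP library had the lowest scaling factor of the series (0.804).

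In the other control libraries, mouse10380 stood apart in ALPs for Ifi35 (188 CPM) and, as the lowest, for Irf7 (6.33, others 41.6 to 55.3), and in BLPs for Zbp1 (14.1). Control mouse10381 had 50.4 CPM of Ifit3 in LMPPs where the others had 0 to 4.90, and control mouse10358 had 22.3 CPM of Rsad2 there.

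Mbd3del mouse10361 was the highest BLP library for Irf7 (42.2 CPM), Ifit3 (15.3), Usp18 (97.7, others 33.9 to 45.1) and Dtx3l (13.6), the highest ALP library for Zbp1 (4.30, the others at 0) and the highest HSC library for Herc6 (52.2). Mbd3del mouse10376 was the highest ALP library for Oasl1 (17.9) and Dtx3l (14.1), the highest HSC library for Isg15 (6.85) and Ifitm3 (1578), the highest LMPP library for Mx1 (11.8) and the lowest BLP library for Irf9 (90.1). The others are Irf9 in Mbd3del mouse10384, highest in ALPs (148) and lowest in LMPPs (84.0), Ifit3 in ALPs (4.77) and Mx2 in LMPPs (25.4) of mouse10360, and Eif2ak2 in BLPs (26.5) and Dtx3l in LMPPs (20.2) of mouse10365.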

How the results depend on the processing

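No member value called in a step changed sign in any of 275 alternative fits of the 25 calls. The difference of Oas2 between genotypes in ALPs was 0.59 without control mouse10372 and mouse10381, and the LMPP genotype median was 0.14 there and -0.28 to -0.047 with single mice left out (highest without mouse10372). Between genotypes, DESeq2 called 2 members in BLPs and 1 over populations, where it called 1.47 and 1.18% of all genes. The joint fit of all libraries called 1 in BLPs, Oas3, which the main fit there did not test. DESeq2 called 1 member for the difference of the ALP to BLP step between genotypes (0.0825% of all genes). It called 7 for the control LMPP to ALP step and 8 for the Mbd3del one, where the newer quasi-likelihood estimator also called 8. For the Mbd3del ALP to BLP step DESeq2 called 4 and the fit with no expression filter 1. Shares of all genes called at the steps in alternative fits are not given here, so these counts are not set against them. With the replicate block, mice paired across populations, the control LMPP to ALP step had 2 calls and the Mbd3del ALP to BLP step 0, and the counts of the other steps stayed within 1.5 times (4 against 5 at the Mbd3del LMPP to ALP step, of which 3 were shared). With single mice left out, counts were 1 to 7 and 0 to 4 for the first 2 control steps, and 4 to 6, 2 to 4 and 0 to 1 for the 3 Mbd3del steps. With no scaling beyond library totals, the median difference of the LMPP to ALP step between genotypes was -0.37, where that of all genes was -0.23.

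The mean pairwise correlation was 0.057 in HSCs, -0.00099 in ALPs and 0.10 in BLPs, 0.086 in control and 0.0085 in Mbd3del libraries, 0.059 in residuals on library measures and 0.031 to 0.056 with a mouse left out. The cause was not tested for any of these, apart from fewer samples in the fits that leave mice out. Depth limits the 13 members with a library at 0 counts, led by Dtx3l (8 of 40 libraries), Oasl1 (7), Mx1 (6) and Zbp1 (6).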
